A study of Mus musculus with 7 samples.

Results

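This account covers 9 receptors that guide leukocyte movement, Ccr1, Ccr2, Ccrl2, Cx3cr1, Cxcr4, Cmklr1, Fpr1, Fpr2 and Gpr183, chosen by gene name from the 28666 genes of the table, with Ccr7 left out. All 9 were present once, and all 9 passed the filter on low counts that left 17461 genes for testing. The cells were bone marrow-derived dendritic cells (BMDCs), grown from marrow of female C57BL/6 mice aged 6 to 8 weeks over 7 days in GM-CSF and IL-4. They were then co-cultured across a Transwell membrane with MC38 cells, a mouse colon adenocarcinoma line treated with the glutamine antagonist DON (5 μM, 24 h), after which immature BMDCs (3 libraries) and mature BMDCs (4 libraries) were separated by flow sorting. Both groups share the strain, the cytokines, the tumor co-culture and, by the study's text, the DON. The same text describes its DON co-cultures as also supplemented with glutamine. However, a legend names DMSO or DON, and the labels give only the stage. The labels give neither the gate of this sort nor whether replicates came from separate mice or cultures, so p values measure the spread between these libraries, which may be technical. The comparison asks which receptor mRNAs differ between the sorted stages.

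The receptors belong to the G protein-coupled receptor family, with 7 membrane-spanning helices. Except for Ccrl2, they couple mainly to inhibitory G proteins and turn a gradient of ligand into directed movement. Ccr1 and Ccr2 bind inflammatory CC chemokines, Cxcr4 binds Cxcl12 and holds cells in the bone marrow, and Cx3cr1 binds fractalkine. Cmklr1 signals in response to chemerin, whereas Ccrl2 binds chemerin without signaling and presents it to Cmklr1. Fpr1 and Fpr2 detect formylated peptides of bacteria and mitochondria, and Gpr183 follows oxysterols. Immature dendritic cells are known for inflammatory chemokine receptors that bring them into tissue, and mature ones for Ccr7, which takes them to lymph nodes.

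Total counts were 54846746 to 67973086 per library. Mature replicate 3 stood apart from the other mature libraries, with an FPKM sum of 381707 against 329247 to 337706. Summed over 16 heart muscle genes, mature replicates 2, 3 and 4 held 318 to 341 FPKM, mature replicate 1 held 13.4 FPKM, 11.2 FPKM of it from Tnni3, and the immature libraries 2.38 to 2.99 FPKM. The 13 monocyte and macrophage markers summed to 9048 to 9199 FPKM in immature and 1151 to 1435 FPKM in mature libraries. Most of that sum was Lyz2, with means of 7965 and 1032 FPKM, and 12 of the 13 fell past the criteria given below. The exception was Ly6c2, with means of 10.6 FPKM in immature and 9.81 FPKM in mature libraries. The 12 dendritic cell markers summed to 4581 to 4716 FPKM in immature and 5591 to 7535 FPKM in mature libraries. Most of that sum was Cd74, with means of 3455 and 4901 FPKM, which did not pass the criteria. Of the 12, 3 were higher and 3 lower past the criteria, and Cd209a was under 1 FPKM in every library. Lymphocyte markers summed to at most 3.90 FPKM in any library.

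The promoters of 3 members are shown because these genes differed in behavior between the stages: Ccr1 fell, Cxcr4 rose and Ccrl2 varied within a stage. Each line is the 250 bases before a RefSeq start, on GRCm38.p6. It reads 5′ to 3′ on the strand of the gene, which is the minus strand for all 3. The windows are chr9:123968693-123968942, chr1:128592300-128592549 and chr9:111057519-111057768. Capitals mark a match to a searched motif on either strand.
Ccr1: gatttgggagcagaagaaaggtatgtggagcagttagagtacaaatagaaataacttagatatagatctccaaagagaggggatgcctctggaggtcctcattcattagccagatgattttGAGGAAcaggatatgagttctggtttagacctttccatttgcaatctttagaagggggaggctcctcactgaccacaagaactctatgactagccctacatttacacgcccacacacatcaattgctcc
Cxcr4: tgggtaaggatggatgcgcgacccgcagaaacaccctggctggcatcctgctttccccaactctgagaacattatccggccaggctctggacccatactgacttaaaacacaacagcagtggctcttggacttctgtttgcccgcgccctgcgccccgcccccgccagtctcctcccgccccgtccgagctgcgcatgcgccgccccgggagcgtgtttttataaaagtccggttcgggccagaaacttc
Ccrl2: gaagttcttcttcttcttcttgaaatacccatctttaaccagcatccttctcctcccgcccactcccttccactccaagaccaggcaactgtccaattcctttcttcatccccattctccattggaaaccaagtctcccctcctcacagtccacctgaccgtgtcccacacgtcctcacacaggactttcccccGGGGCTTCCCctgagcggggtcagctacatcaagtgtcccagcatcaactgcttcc
The motifs searched were GAGGAA (a core bound by factors of the PU.1 family), TGANTCA (AP-1), the interferon-stimulated response element (a pair of GAAA separated by any 2 bases), TTGCNNAA (C/EBP) and the NF-kappa B consensus. The Ccr1 window held GAGGAA, as did those of Cmklr1 and Fpr2, and 23.3% of all 32851 windows of this length hold it. The Ccrl2 window shown held the NF-kappa B consensus 56 bases before the start, and 3.90% of windows hold it. RefSeq gives further Ccrl2 starts, and their windows, chr9:111057271-111057520 and chr9:111057245-111057494, held none of the motifs. The Gpr183 window held the C/EBP motif, which 9.56% of windows hold. The Cxcr4 window held none of these motifs, and its GC content was 61.2% against 43.6% for Ccr1 and 54.0% for Ccrl2. Such matches describe letters and not binding.

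Mature BMDCs carried far less mRNA for the tissue-entry receptors Ccr1, Ccr2 and Cmklr1, modestly less for Fpr2 and Gpr183, and more for Cxcr4. By edgeR's quasi-likelihood test, with criteria of a 2-fold difference or more (1 on the log2 scale) and a Benjamini-Hochberg adjusted p below 0.05, 5 of the 9 receptors were lower and 1 was higher in mature cells. Across all tested genes 9.95% were lower and 13.2% higher by the same criteria, 23.1% in either direction. The same 6 receptors passed on adjusted p alone, as did 46.1% of all tested genes. The median log2 fold change was -1.09 over the 9 receptors and 0.05 over all tested genes. In counts scaled by library size (CPM), the libraries of the stages did not overlap for 7 receptors, Ccrl2 and Fpr1 being the exceptions, and they did not overlap for 52.1% of all tested genes. In bulk RNA, fewer cells with a receptor and less RNA per cell cannot be told apart.

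**Figure D1:**
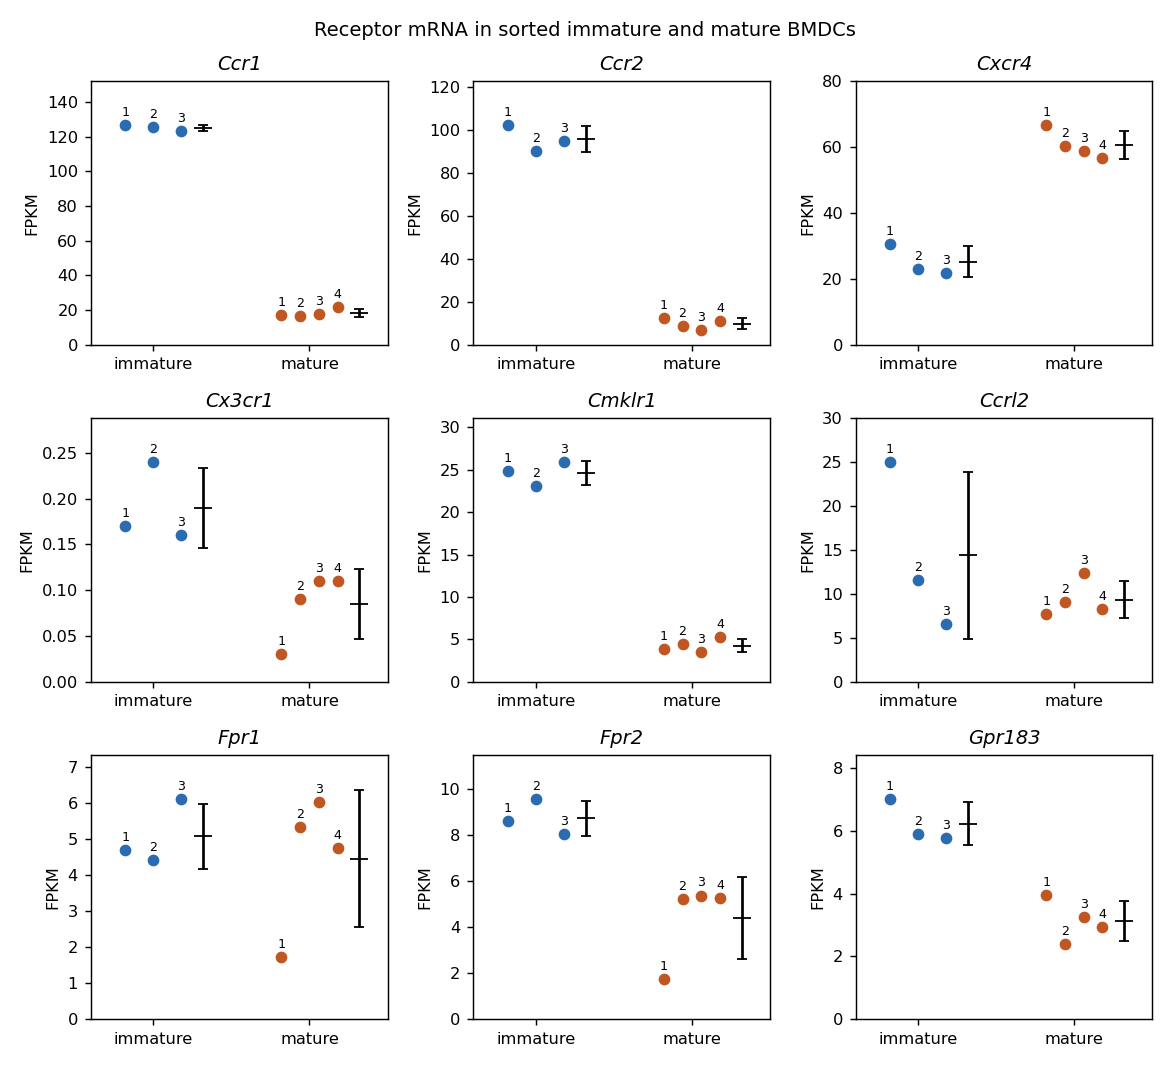
FPKM (y axis, linear from 0) of each receptor in every library of immature and mature BMDCs. Points are libraries with their replicate number and bars give mean ± SD. Ccr1, Ccr2 and Cmklr1 lie far lower in all 4 mature libraries, Cxcr4 lies higher, and Ccrl2 and Fpr1 overlap between the stages.

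Ccr1 (ENSMUSG00000025804, chromosome 9 from 123962124 to 123968692, GRCm38) was the most abundant of the receptors in immature cells. Its levels were 126.8, 125.4 and 123.2 FPKM, fragments scaled for gene length and library total, in immature replicates 1 to 3. In mature replicates 1 to 4 they were 17.2, 16.8, 17.5 and 21.8 FPKM. The immature libraries were nearly equal (coefficient of variation 1.43%), and every mature library lay far under them. Mature minus immature, the log2 fold change was -2.88 ± 0.11 (SE, adjusted p = 4.32e-07 by edgeR), a 7.35-fold lower level.

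Ccr2, the receptor that releases monocytes from bone marrow, fell the most of the 9. This gene (ENSMUSG00000049103, chromosome 9 from 124101950 to 124113557) had 102, 89.9 and 94.8 FPKM in immature replicates 1 to 3. Its mature levels were 12.4, 8.86, 6.90 and 11.0 FPKM in replicates 1 to 4. The groups were far apart, and mature replicate 3 was the lowest library. Its log2 fold change was -3.40 ± 0.17 (SE, adjusted p = 1.25e-06 by edgeR), a 10.6-fold lower level. Without mature replicate 3 the log2 fold change was -3.27. The annotated exons of Ccr2 cover 6760 bases, the longest of the 9 genes. Of its 50-base stretches, 1.91% also occur in transcripts of other genes.

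Ccr1 and Ccr2 are near neighbors on chromosome 9. The 2 chemokine receptor genes between them, Ccr1l1 and Ccr3, did not exceed 0.30 FPKM and 0.11 FPKM in any library. The fall of Ccr1 and Ccr2 thus flanked genes that were close to 0 at both stages.

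Cmklr1 (ENSMUSG00000042190, chromosome 5 from 113612354 to 113650426) was at 24.9, 23.1 and 25.9 FPKM in immature replicates 1 to 3. It was at 3.82, 4.46, 3.48 and 5.22 FPKM in mature replicates 1 to 4. Every mature library was far under the lowest immature one. The log2 fold change was -2.65 ± 0.13 (SE, adjusted p = 1.15e-06 by edgeR), a 6.27-fold lower level.

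The levels of Ccr1, Ccr2 and Cmklr1 moved with the monocyte and macrophage markers given above, apart from Ly6c2. The part of those cells in the falls was not tested. With mature replicate 1 alone against the immature libraries, where heart genes were low, the log2 fold changes were -2.97, -3.06 and -2.80.

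Cxcr4 (ENSMUSG00000045382, chromosome 1 from 128588199 to 128592293) was the only one of the 9 receptors that rose past the criteria. It was at 30.6, 23.1 and 21.9 FPKM in immature replicates 1 to 3. The mature levels were 66.7, 60.3, 58.7 and 56.7 FPKM in replicates 1 to 4. Every mature library was above every immature one, and immature replicate 1 was the highest of its group. In log2 terms the change was 1.16 ± 0.13 (SE, adjusted p = 9.59e-05 by edgeR), a 2.24-fold higher level, and 1.30 with mature replicate 1 alone.

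Gpr183, the oxysterol receptor that positions dendritic cells and lymphocytes within lymphoid organs, fell modestly. This gene (ENSMUSG00000051212, chromosome 14 from 121952551 to 121965195) had 7.01, 5.90 and 5.76 FPKM in immature replicates 1 to 3. In mature replicates 1 to 4 it had 3.94, 2.39, 3.24 and 2.94 FPKM. The groups did not overlap. Its log2 fold change was -1.09 ± 0.18 (SE, 95% interval -1.50 to -0.69, adjusted p = 0.0011 by edgeR). That value sits close to the criterion of 1, and without mature replicate 2 it was -0.96, which does not pass. The gene overlaps Ubac2, on the opposite strand, and shares no exon bases with it.

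The formyl peptide receptors Fpr1 and Fpr2, neighbors on chromosome 17, were both lowest in mature replicate 1. Fpr2 (ENSMUSG00000052270, from 17887824 to 17893952) was at 8.60, 9.56 and 8.05 FPKM in immature replicates 1 to 3. Its mature levels were 1.74, 5.22, 5.37 and 5.27 FPKM in replicates 1 to 4. All mature libraries were under the immature ones, and replicate 1 was well under the other mature libraries. The log2 fold change was -1.09 ± 0.35 (SE, adjusted p = 0.0316 by edgeR). Without mature replicate 1 it was -0.82 (edgeR adjusted p = 0.00129), under the fold criterion. Without immature replicate 1, 2 or 3 the edgeR adjusted p was 0.0713, 0.0918 or 0.0712.

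Fpr1 (ENSMUSG00000045551, chromosome 17 from 17876471 to 17883940) had 4.70, 4.42 and 6.11 FPKM in immature replicates 1 to 3. It had 1.71, 5.33, 6.04 and 4.74 FPKM in mature replicates 1 to 4. Mature replicates 2, 3 and 4 lay within the immature range, and replicate 1 lay under it. The log2 fold change was -0.29 (95% interval -1.17 to 0.59, edgeR adjusted p = 0.577), so the data fix neither a fall nor a rise. It was -0.02 without mature replicate 1 and -1.68 with that library alone against the immature ones, a value with no spread between mature libraries behind it. Mature replicate 1 was also the mature library with the fewest heart transcripts, and the part of heart cells in the values of Fpr1 and Fpr2 was not tested. Fpr1 and Fpr2 are also neutrophil genes. The 13 neutrophil markers summed to 137 to 141 FPKM in immature and 22.9 to 33.6 FPKM in mature libraries. Most of that sum was Mmp8, a collagenase gene, with a mean of 130.6 FPKM in immature and 18.8 FPKM in mature libraries. Cxcr2 of the same list was higher in every mature library, with means of 3.26 and 6.62 FPKM, and did not pass the criteria. Ly6g, Mpo, Camp, Ngp, Ltf and others, 9 of the 13 in all, were under 1 FPKM in every library. Of the 50-base stretches of Fpr2, 31.5% also occur in transcripts of Fpr3, Gm5966 or Fpr1, so reads could be shared. Fpr3 had at most 4 counts in a library. Of the 1275 such stretches of Fpr1, only 1 also occurs in Fpr2.

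Ccrl2 (ENSMUSG00000043953, chromosome 9 from 111054486 to 111057519) varied more within the immature group than between the stages. The immature levels were 25.01, 11.6 and 6.61 FPKM in replicates 1 to 3, a coefficient of variation of 66.2%. The mature levels were 7.69, 9.03, 12.4 and 8.26 FPKM in replicates 1 to 4. Immature replicate 1 lay above all other libraries and immature replicate 3 below all of them. The log2 fold change was -0.71 (95% interval -1.61 to 0.19, edgeR adjusted p = 0.175). Immature replicate 1 decided this value, which was -0.06 (edgeR adjusted p = 0.890) without it. Without immature replicate 3 it was -1.05 (edgeR adjusted p = 0.0421).

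Cx3cr1 (ENSMUSG00000052336, chromosome 9 from 119901616 to 120068296) was close to the floor of detection. It had 51, 67 and 55 counts in immature replicates 1 to 3. In mature replicates 1 to 4 it had 11, 27, 31 and 33 counts. These are at most 0.24 FPKM in any library. The mature libraries were lower, but the log2 fold change of -1.21 ± 0.46 (SE, adjusted p = 0.0615 by edgeR) missed the criteria. It was -1.38 (edgeR adjusted p = 0.0347) without mature replicate 3. Its annotated span of 166681 bases contains other genes, none of which shares exon bases with it.

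**Figure D2:**
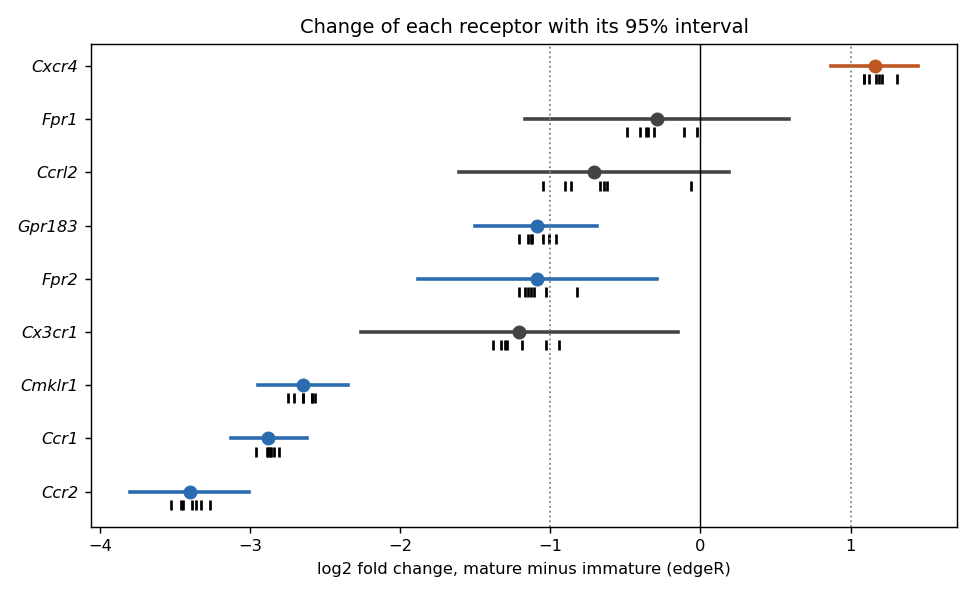
Log2 fold change (x axis, mature minus immature) of the 9 receptors. Dots and lines give the edgeR estimate and its unadjusted 95% interval, ticks the estimates without 1 library each, and dotted lines a log2 fold change of 1 in either direction. Blue genes were lower and the orange gene higher past the criteria, and dark gray genes did not pass. Ccr2, Ccr1 and Cmklr1 stand clear of the criterion in every such estimate, Cxcr4, Gpr183, Fpr2 and Cx3cr1 lie nearer to it, and the estimates for Ccrl2 spread from -1.05 to -0.06.

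The order of the receptors by FPKM differed between the stages. In immature cells the order was Ccr1, Ccr2, Cxcr4, Cmklr1, Ccrl2, Fpr2, Gpr183, Fpr1 and Cx3cr1. The ranges of neighbors overlapped for Cxcr4 with Cmklr1, Cmklr1 with Ccrl2, Ccrl2 with Fpr2 and Gpr183 with Fpr1, so those places are not resolved by 3 libraries. In mature cells Cxcr4 came first at 60.6 ± 4.32 FPKM (SD, n = 4), above Ccr1 at 18.3 ± 2.36 FPKM (SD, n = 4). Ccr2 and Ccrl2 followed with overlapping ranges, then Fpr1, Fpr2 and Cmklr1, also overlapping, then Gpr183, whose range overlapped that of Cmklr1, and Cx3cr1.

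The summed FPKM of the 9 receptors was 292 to 330 in immature and 112 to 116 in mature libraries. Ccr1 and Ccr2 made up 69.4% to 74.5% of that sum in immature cells and 21.4% to 28.3% in mature cells. Cxcr4 made up 7.48% to 9.27% and 48.8% to 57.9%. These are shares of a sum of FPKM values and do not measure protein.

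**Figure D3:**
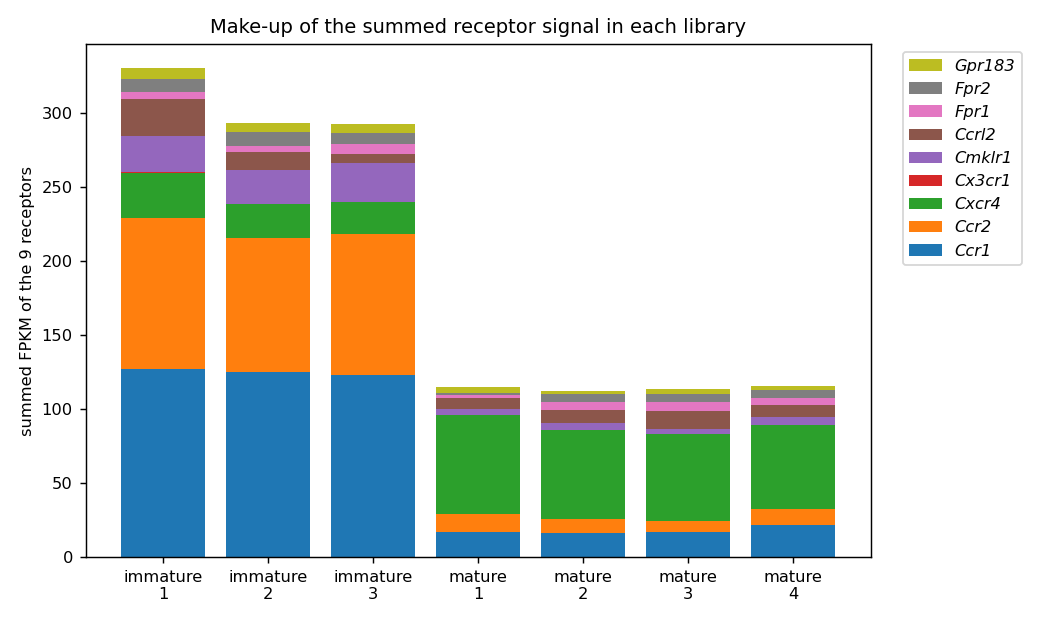
Summed FPKM (y axis, linear from 0) of the 9 receptors in each library, stacked by gene. The 3 immature columns, 292 to 330 FPKM high, consist mostly of Ccr1 and Ccr2, and in the 4 mature columns of 112 to 116 FPKM Cxcr4 is the largest share, at 48.8% to 57.9%.

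Within each library, receptors that share a ligand were set against each other as log2 ratios of FPKM, which need no scaling between libraries. The ratio of Ccrl2 to Cmklr1, the presenting to the signaling chemerin receptor, was 0.01, -1.0 and -1.97 in immature replicates 1 to 3. It was 1.01, 1.02, 1.83 and 0.66 in mature replicates 1 to 4. Cmklr1 was thus above Ccrl2 in immature replicates 2 and 3, nearly equal to it and slightly lower in immature replicate 1, and below it in all mature libraries. The difference of the means was 2.12 on the log2 scale (exact permutation of the 35 possible labelings, two-sided, p = 0.0571, adjusted over 3 ratios 0.0857). A p of 0.0571 is the smallest that 3 libraries against 4 allow.

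The ratio of Fpr1 to Fpr2 was -0.87, -1.11 and -0.40 in immature replicates 1 to 3 and -0.03, 0.03, 0.17 and -0.15 in mature replicates 1 to 4. The groups did not overlap, and mature replicate 1 was no exception here although both its levels were low. The difference was 0.80 (two-sided exact permutation test, p = 0.0571, adjusted 0.0857). The ratio of Ccr1 to Ccr2 was 0.31, 0.48 and 0.38 in immature replicates 1 to 3 and 0.47, 0.92, 1.34 and 0.99 in mature replicates 1 to 4. Mature replicate 1 lay within the immature range, and the difference of 0.54 was less firm (two-sided exact permutation test, p = 0.114).

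**Figure D4:**
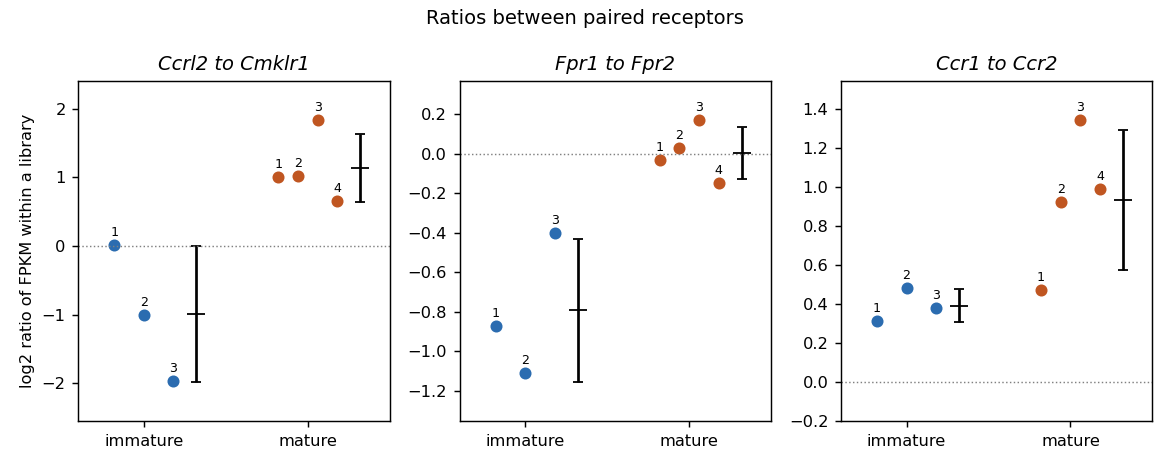
Log2 ratio of FPKM within a library (y axis) for 3 receptor pairs in immature and mature BMDCs. Points are libraries with their replicate number and bars give mean ± SD. The groups are apart for Ccrl2 to Cmklr1 and for Fpr1 to Fpr2, and they overlap in mature replicate 1 for Ccr1 to Ccr2.

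For each receptor, the genes with the closest profile were taken by the root mean square difference of centered log2 CPM over the 7 libraries, among 11322 genes with a mean FPKM of at least 1. Nearest to Ccrl2 were Dusp1 (0.197), a phosphatase of the immediate early response, and Cd69 (0.229), an early activation marker. Dusp1 had 108.5, 50.1 and 36.1 FPKM in immature replicates 1 to 3 and 28.5 to 51.2 FPKM in mature libraries, so it too was highest in immature replicate 1. Nearest to Fpr1 were Ly6c2 (0.174), a monocyte surface antigen, and Mmgt2 (0.199). Ly6c2 had 10.03 to 11.5 FPKM in immature libraries, 4.85 FPKM in mature replicate 1 and 10.9 to 12.4 FPKM in mature replicates 2, 3 and 4. Nearest to Fpr2 were Npy (0.168) and Slc6a12 (0.180), and nearest to Cx3cr1 were Fpr2 (0.147) and Ankrd66 (0.154). The profiles of these 6 genes were likewise lowest in mature replicate 1.

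Ccr1 was closest to F7 (0.060), which encodes a coagulation factor, and Ccdc80 (0.076). Ccr2 was closest to Hacd4 (0.123) and Padi4 (0.126), and Cmklr1 to the amino acid transporter gene Slc7a8 (0.089) and to Gpr141 (0.099). Cxcr4 was closest to Csrnp1 (0.101) and Nsun4 (0.108). Gpr183 was closest to Fdps (0.107), an enzyme gene of cholesterol synthesis, and Camk1 (0.118). These are descriptions over 7 libraries that share their scaling.

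Other receptors for chemoattractants were read from a list of 41 genes, of which 36 were in the table and 26 were tested. Of these, 5 were higher and 8 lower in mature cells past the criteria, or 50% against 23.1% of all tested genes, with a median log2 fold change of -0.48 against 0.05. The higher ones were Ccr7, Ccr4, Ccr6, Cxcr5 and S1pr3, of which Ccr4, Ccr6 and Cxcr5 did not exceed 0.59 FPKM in any library and Ccr4 overlapped between the stages. The number higher was 3 without immature replicate 1, 2 or 3 or without mature replicate 2. It was 4 without mature replicate 1 or 4, and 7 without mature replicate 3. Ccr7 went from 89.8 ± 2.93 FPKM (SD, n = 3) to 1183 ± 66.8 FPKM (SD, n = 4), a log2 fold change of 3.62 ± 0.11 (SE, adjusted p = 1.83e-07 by edgeR). Among the lower ones, the complement receptor gene C5ar1 had a log2 fold change of -2.51 ± 0.13 (SE, adjusted p = 1.38e-06 by edgeR). For C3ar1, the receptor of another complement fragment, it was -2.06 ± 0.084 (SE, adjusted p = 4.94e-07 by edgeR). For P2ry6, which responds to uridine diphosphate, it was -2.51 ± 0.076 (SE, adjusted p = 1.83e-07 by edgeR). Ltb4r1, a receptor for the lipid leukotriene B4, went from 102.8 ± 1.42 FPKM (SD, n = 3) to 29.6 ± 6.85 FPKM (SD, n = 4), a log2 fold change of -1.89 ± 0.19 (SE, adjusted p = 6.02e-05 by edgeR). The lower genes besides these were C5ar2, Cysltr1, S1pr4 and P2ry12.

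The list of ligands of the 9 receptors, with enzymes that make or clear the ligand of Gpr183, held 23 genes, of which 18 were tested. Of these, 3 were higher and 7 lower, or 55.6% against 23.1% of all tested genes, with a median log2 fold change of -0.77 against 0.05. Ccl5, which Ccr1 binds, went from 65.2 ± 2.08 FPKM (SD, n = 3) to 1305 ± 246 FPKM (SD, n = 4), a log2 fold change of 4.23 ± 0.20 (SE, adjusted p = 8.09e-07 by edgeR). Cx3cl1, the fractalkine gene, went from 4.26 ± 0.169 FPKM (SD, n = 3) to 50.6 ± 4.10 FPKM (SD, n = 4), a log2 fold change of 3.46 ± 0.087 (SE, adjusted p = 1.28e-07 by edgeR), while its receptor Cx3cr1 stayed at 0.24 FPKM or less. Cxcl12, the ligand of Cxcr4, had 0, 7 and 0 counts in immature replicates 1 to 3 and 30, 270, 163 and 195 counts in mature replicates 1 to 4. It thus stayed at 0.49 FPKM or less, and was highest in the 3 libraries with heart transcripts, whose part in it was not tested.

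Among the CC chemokine genes of the list, Ccl2, Ccl3, Ccl4, Ccl6 and Ccl9 were lower. Ccl2, the main ligand of Ccr2, went from 71.4 ± 10.5 FPKM (SD, n = 3) to 17.98 ± 5.50 FPKM (SD, n = 4), a log2 fold change of -2.08 ± 0.25 (SE, adjusted p = 0.000176 by edgeR). Ccl3 had a log2 fold change of -1.88 ± 0.16 (SE, adjusted p = 1.92e-05 by edgeR). Ccl6, the most abundant of the list in immature cells, went from 3323 ± 149 FPKM (SD, n = 3) to 536 ± 70.2 FPKM (SD, n = 4), a log2 fold change of -2.73 ± 0.14 (SE, adjusted p = 1.20e-06 by edgeR). Anxa1, whose protein binds formyl peptide receptors, and Ch25h, which starts the synthesis of the Gpr183 ligand, were the other two genes lower past the criteria. Ch25h had 3.17, 2.54 and 3.76 FPKM in immature replicates 1 to 3 and 0.32, 0.76, 0.68 and 1.00 FPKM in mature replicates 1 to 4. Rarres2, which encodes chemerin, did not exceed 0.26 FPKM in any library.

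**Figure D5:**
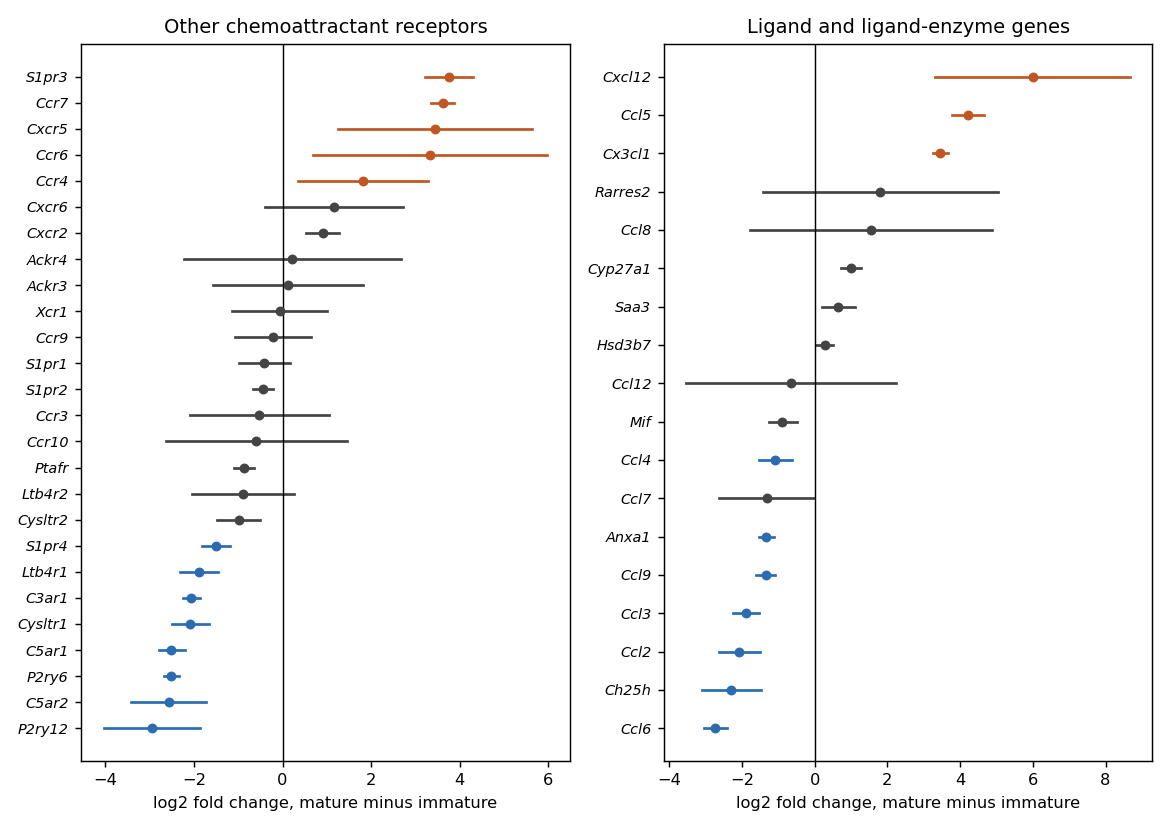
Log2 fold change (x axis, mature minus immature) with its unadjusted 95% interval for the 26 tested genes among other chemoattractant receptors and the 18 tested genes among ligands and ligand enzymes. Blue genes were lower and orange genes higher past the criteria, and dark gray genes did not pass. S1pr3, Ccr7, Ccl5 and Cx3cl1 stand at or near the high end with narrow intervals, and Cxcl12 lies highest with a wide one. C5ar1, P2ry6 and Ccl6 lie near the low end, with C5ar2 and P2ry12 below C5ar1 and P2ry6.

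Downstream of these receptors, 47 of the 48 listed genes in the table for G proteins, kinases, arrestins and regulators of G protein signaling were tested. Of these, 7 were higher (14.9%, against 13.2% of all tested genes) and 8 lower (17%, against 9.95%), with a median log2 fold change of -0.12 against 0.05. Gnb4, a G protein beta subunit, went from 0.747 ± 0.0473 FPKM (SD, n = 3) to 10.8 ± 0.616 FPKM (SD, n = 4), a log2 fold change of 3.73 ± 0.096 (SE, adjusted p = 1.28e-07 by edgeR). Among the kinases that phosphorylate active receptors, Grk3 rose, with a log2 fold change of 2.2 ± 0.18 (SE, adjusted p = 1.74e-05 by edgeR), and Grk5 fell, with -1.98 ± 0.081 (SE, adjusted p = 4.94e-07 by edgeR). The Src family kinase gene Fgr had a log2 fold change of -2.75 ± 0.10 (SE, adjusted p = 4.07e-07 by edgeR), and Rgs14 one of -2.03 ± 0.11 (SE, adjusted p = 1.82e-06 by edgeR).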

How the data were processed

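RNA of sorted immature (3 libraries) and mature (4 libraries) BMDCs was measured by poly(A)-selected, strand-marking, paired-end sequencing. Values of 2 kinds deposited by the authors were used, raw counts for each gene and FPKM, scaled by the authors for gene length and library total. The submitters' processing notes name cutadapt 1.9, HISAT2 2.2.1, StringTie 2.1.6, DESeq2 and edgeR without roles, and the build mm9. The coordinates of the table are those of GRCm38: 87.2% of the 28588 gene IDs shared with GENCODE M21 have identical coordinates. The counting program and its strand setting are not given in the sources used here.

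Sample titles gave the group and replicate number, and dose, times and mouse age from the study's methods. The receptors and gene lists were chosen with earlier results of these data known. Counts were tested in R 4.3.3 with edgeR 4.0.16 (filterByExpr, TMM, quasi-likelihood F test, Benjamini-Hochberg adjustment over 17461 genes). The standard error is the size of the log2 fold change divided by the square root of F. CPM uses TMM library sizes. Intervals are at 95%. On simulated counts with 200 genes changed 4-fold, edgeR recovered 132 (66%) with 6 false calls among 16917 genes. Log2 ratios of FPKM were tested by exact permutation in Python 3.11.15 (scipy 1.17.1, matplotlib 3.10.9 for plots).

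Genes named from a list had a mean FPKM of at least 10 in the higher group and were the 5 with the largest change. An item of the list of other receptors is not reported here and is left out of its counts. For each receptor, the 2 closest profiles were named. Other listed genes were named to complete a small count or as ligands of a receptor, after their values were seen. Depth was 54846746 to 67973086 counts per library, and it bears on counting error only. Replicates differed by more than sampling noise, with a median chi-square per gene of 3.83 to 25.6 where noise gives 0.455. Of the lists, 1 ligand gene and 1 other receptor gene (Camp and Cxcr2) also stand among the neutrophil markers. Alternatives were limma 3.58.1 on log2(FPKM + 1), DESeq2 1.42.0, other scalings and filters, a replicate block and the omission of each library.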

Additional observations from a re-analysis of the deposited data

Results flagged for a closer look

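Of 16 values compared across the 4 mature libraries (the CPM of each receptor, the 3 receptor ratios and 4 marker sums), 1 had a library well apart from the rest, and about 0.8 would by chance. It was the summed FPKM of the heart muscle genes, at 13.4 in mature replicate 1 and 318 to 341 in the others, a gap of 0.931 of the range, above Dixon's 95% limit. Fpr2, at 0.818, and Ccrl2, at 0.803, came close to that value, with mature replicate 1 the low library for Fpr2 and mature replicate 3 the high library for Ccrl2. The immature group of 3 is too small for this comparison.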

How the results depend on the processing

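Ccr1, Ccr2 and Cmklr1 stayed lower and Cxcr4 higher past the criteria in all 18 alternatives (1 of them with a lone mature library), with log2 fold changes of -2.97 to -2.71, -3.53 to -3.06, -2.80 to -2.30 and 1.09 to 1.31. Fpr2 and Gpr183 kept their direction but lay near the criteria. The number of lower receptors was 3 with upper quartile scaling, where Fpr2 and Gpr183 were both at -0.98 and the median of all genes moved from 0.05 to 0.16. It was 3 with limma on log2(FPKM + 1), with or without a filter, where Fpr2 was at -0.93 and Gpr183 at -0.82. On this scale low genes change less by construction. With a pseudocount of 0.1 Gpr183 was at -0.99, and without a filter on counts Fpr2 was at -1.07 (edgeR adjusted p = 0.0538). With mature replicate 1 alone, Cx3cr1 was at -2.51, Fpr1 at -1.68 and Gpr183 at -0.77, values with no spread of their own, since the lone library is only assumed to vary like the immature ones. Without 1 library each, log2 fold changes ran from -1.21 to -0.82 for Fpr2, -1.21 to -0.96 for Gpr183, -1.05 to -0.06 for Ccrl2 and -1.38 to -0.94 for Cx3cr1, and the number of lower receptors from 4 to 6. Other chemoattractant receptors past the criteria numbered 13, but 8 in each limma fit and 7 under a filter of 5 FPKM in 3 libraries, where 9 were tested. Of the 13, 5 were higher, against 3 without any 1 immature library or mature replicate 2 and 7 without mature replicate 3. The number higher was 6 with upper quartile scaling, 2 in each limma fit and 1 under the filter of 5 FPKM. Without a fold criterion 30 signaling genes passed in place of 15. Over all genes, 4037 passed, against 1768, 2561 and 1716 with limma (pseudocount 1, pseudocount 0.1 and no filter), 1525 with the FPKM filter and 8053 without the fold criterion. Where no cause is given it was not tested. Same-numbered libraries did not deviate together (r of -0.001 to 0.029 over genes). This gives no sign of pairing by number but cannot exclude it, since a small shared effect could be hidden by noise. With the replicate number as a block, in which mature replicate 4 adds nothing, 5 receptors were lower and 1 higher, as without it, and 2 of the other chemoattractant receptors were higher in place of 5. Cx3cr1, at 11 to 67 counts, is the receptor that depth limits.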
